A study of Mus musculus with 9 samples.

Results

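Binding of T (Brachyury) was compared directly with binding of SMAD1 in one cell line, the Prdm14-mVenus reporter line (PV), using 2 of the 9 chromatin immunoprecipitation sequencing (ChIP-seq) libraries of the series. Both were chosen by their antibody and genotype labels, the SMAD1 library also by its time, and they were set against each other without an input in between. The series asked where these factors sit on the genome of mouse cells that are on the way to a primordial germ cell-like state. The T library came from PV cells immunoprecipitated with an antibody to T, with no time in its title. The SMAD1 library came from PV cells at 36 h. Libraries that served only as side measurements were TCF1 and SMAD1 at 12, 24 and 36 h from the Blimp1-mVenus reporter line (BV), and 3 inputs (chromatin without immunoprecipitation) titled PV, BVSC and BV, of which BVSC carries the genotype label of BV. Both reporters read genes of germ cell specification, Prdm14 and Blimp1, through a yellow fluorescent protein, and each line stands for itself. All samples carry the strain C57BL/6 and the label EpiLC, which stands for epiblast-like cells derived from embryonic stem cells. The protocol has these cells form aggregates in a medium that holds LIF, to which the cytokines BMP4 and WNT3A were added or not. Which library received which cytokine is not given in the labels used here. Every group is 1 library, so there is no spread between replicates, no p-value is given, and the intervals below cover counting error only.

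T belongs to the T-box family of DNA-binding proteins and marks the primitive streak and the early mesoderm. SMAD1 is a receptor-regulated SMAD, which moves into the nucleus with SMAD4 once BMP receptors are active and binds DNA with other factors. In the mouse embryo, BMP and WNT signals act on the epiblast before primordial germ cells form, and T is induced downstream of WNT. Whether T and SMAD1 sit at the same places or at different ones is what a direct comparison within PV addresses.

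The T library held 20736671 reads and the SMAD1 library 43354004. Levels are counts divided by the library's mean count in 1977886 autosomal windows with ordinary input, so a level of 1 is that of a typical 2 kb window, equal to 17.2 counts in T and 36 in SMAD1. Levels were compared in 2241798 autosomal windows with a mean input level of at least 0.25, which is 90.7% of all 2472353. The ratio was T over SMAD1 with 0.5 added to each level, which understates the change of windows where both are low. Coordinates are those of the mm9 windows as deposited. Gene positions and genome sequence of that build were not used here, so sites are given by position, with no gene names and no sequences.

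From 3-fold up, with the pseudocount of 0.5, more windows had T above SMAD1 than SMAD1 above T, while at 2-fold the order of the counts turned with the pseudocount. T was 2-fold or more above SMAD1 in 7441 windows, 0.332% of those compared, and SMAD1 was 2-fold or more above T in 5373 windows, 0.24%. Most windows lay close to equality, with a median log2 ratio of -0.02 and an SD of 0.34 across windows. At 3-fold the counts were 1922 windows for T (0.0857%) and 232 for SMAD1 (0.0103%), and at 4-fold they were 900 (0.0401%) and 111 (0.00495%). The 7441 T windows merged into 4713 regions, of which 49.3% were a single window, whereas the 5373 SMAD1 windows merged into 4619 regions, of which 87.5% were a single window. The counts at 2-fold depended on the pseudocount. With 0.25 in place of 0.5 they were 15748 for T and 28376 for SMAD1, the opposite order, and with 1 they were 3890 and 464. With SMAD1 thinned to the depth of T they were 13280 and 10381.

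**Figure D1:**
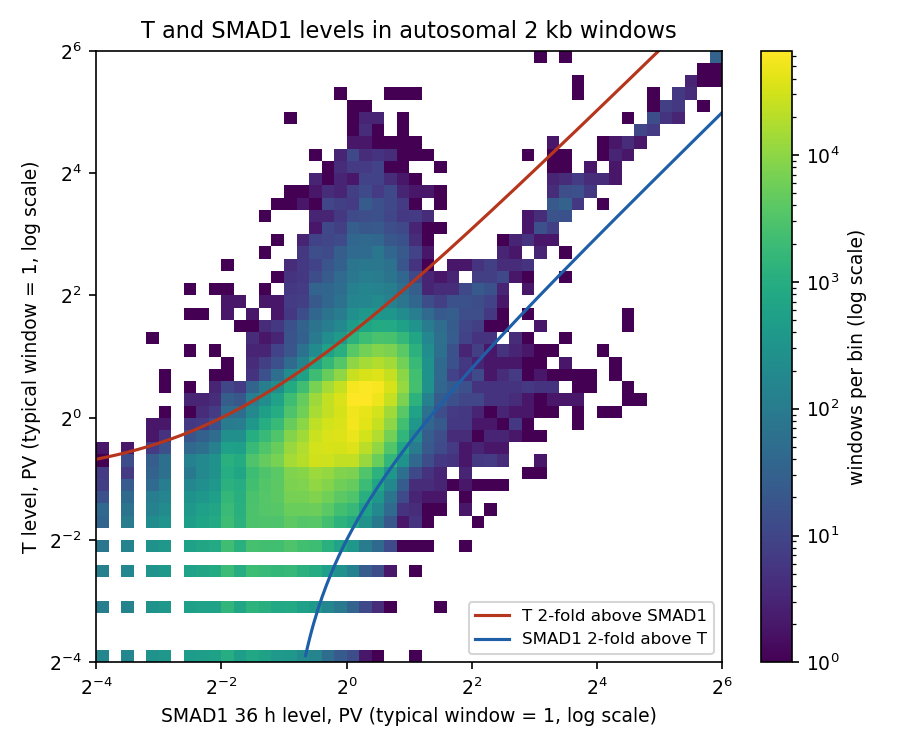
T level (vertical axis) against SMAD1 level (horizontal axis) in 2241798 autosomal windows of PV, both on log scales with a typical window at 1; colour gives windows per bin, and levels beyond the axes are drawn at the edge. Above the red line lie the 7441 windows with T at least 2-fold above SMAD1, below the blue line the 5373 with SMAD1 at least 2-fold above T; a vertical arm of high T near a SMAD1 level of 1, a shorter horizontal arm of high SMAD1 near a T level of 1, and a diagonal of windows high in both can be seen.

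The windows on each side had a different make-up. On the T side the median level was 3.31 in T and 1.03 in SMAD1, from median counts of 57 and 37, and 6292 of the 7441 windows (84.6%) had a T level of at least 2. On the SMAD1 side the median level was 0.348 in T and 1.33 in SMAD1, from median counts of 6 and 48. Of the 5373 SMAD1 windows, 701 (13%) had a SMAD1 level of at least 2. In 3952 of them (73.6%), T lay at 0.5 or below, which is at most 8 counts, while SMAD1 was under 2. The SMAD1 side at 2-fold was therefore mostly made of windows with few T counts. T was at 0 counts in 120 of these windows, which allows up to 3 counts or a level of 0.174. The exact 95% interval of the ratio (Clopper-Pearson, on the split of both counts, not adjusted for the number of windows) excluded 1 in every window of both sides. The windows were chosen by these same counts, so the rule itself leads to this, and it adds no support for a difference. It excluded 2-fold in 3658 windows of the T side (49.2%) and in 915 of the SMAD1 side (17%).

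The same rule was applied to 2 inputs as a background, input PV thinned to the depth of T over input BV thinned to that of SMAD1. It called 1033 windows on the side that corresponds to T (0.0461%) and 2674 on the side that corresponds to SMAD1 (0.119%). These inputs also differ in line. At 3-fold the 1922 T and 232 SMAD1 windows stood against 172 and 269 in the inputs, and at 4-fold the 900 and 111 stood against 167 and 241, so on the SMAD1 side the inputs gave the higher count. Outside runs of 10 kb or more past 2-fold, a limit set after seeing the data, the inputs gave 824 (0.0368%) and 2391 (0.107%) at 2-fold, 4 and 21 at 3-fold, and 0 and 10 at 4-fold. The same limit removes no window of T or SMAD1, whose longest runs past 2-fold spanned 8 and 9 kb. Differences of whole chromosomes between these inputs stay in. Chromosome 11 averaged 1.03 in input PV and 1.21 in input BV. The other way round, chromosome 8 averaged 1.08 and 0.951, and chromosome 14 averaged 1.07 and 0.937.

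Windows at the boundary show what a 2-fold difference rests on. Just inside on the T side, chr1:20203001-20205001 had 23 counts in T and 15 in SMAD1 (levels 1.33 and 0.417). Just outside, chr1:43194001-43196001 had 45 and 38 counts (levels 2.61 and 1.06). Just inside on the SMAD1 side, chr1:14794001-14796001 had 0 counts in T and 18 in SMAD1 (levels 0 and 0.5). Just outside, chr4:150253001-150255001 had 23 and 114 counts (levels 1.33 and 3.17). The windows just outside thus had the higher counts on both sides.

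Libraries that played no part in the choice of windows separated the folds on the SMAD1 side. SMAD1 at 12 h in BV was at a level of 2 or more in 6.24% of SMAD1-side windows between 2 and 2.5-fold, in 32.4% between 2.5 and 3-fold, in 88.4% between 3 and 4-fold, in 97.6% between 4 and 6-fold and in all 29 windows at 6-fold or more. Over all windows compared the share was 1.52%. From 3-fold up, then, 93.1% of the windows in which SMAD1 stood above T in PV were also raised in an earlier SMAD1 library of the other line. At 24 h in BV the shares in the same order were 2.81, 18.8, 62.8, 89.0 and 100%, and at 36 h in BV they were 3.22, 15.8, 59.5, 80.5 and 100%. On the T side, SMAD1 at 12 h in BV was raised in 1.94% of windows between 2 and 2.5-fold and in 3.6% at 6-fold or more. SMAD1 at 24 h was raised in 1.83% and 3.6% of them, against 0.931% of all windows, and at 36 h, the time of the PV library, in 5.06% and 14.1%, against 2.02%. TCF1, a DNA-binding partner of beta-catenin in WNT signalling, was raised in BV in 3.91% and 9.61% of the same T-side windows, against 2.78% of all windows. The series holds 1 T library, so no second one could be set beside the T side.

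**Figure D2:**
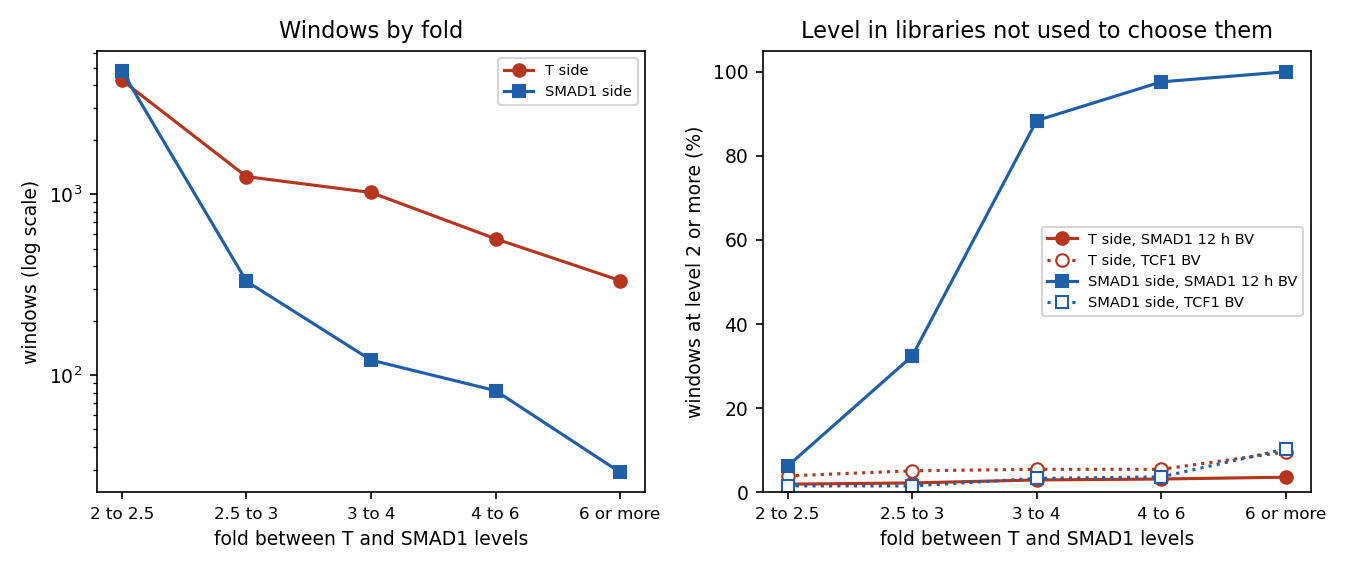
Left, number of windows (log scale) by the fold between T and SMAD1 levels, with T higher (red circles) or SMAD1 higher (blue squares). Right, the percent of those windows at a level of 2 or more in SMAD1 at 12 h of BV (filled, solid) and in TCF1 of BV (open, dotted); the SMAD1-side line climbs from 6.24% to 100%, while both T-side lines stay under 10%.

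Sites were then called in each library without looking at the other. A site was a run of windows with a level of at least 4 where input PV was below 2. T had 1476 sites, made of 2612 windows (0.117% of 2238666), and SMAD1 had 123, made of 241 windows (0.0108%). The median level at the highest window, the summit, was 5.39 for T sites and 5.69 for SMAD1 sites, and the median width was 3 kb for both. T reached 8 or more at 269 sites and SMAD1 at 29. The antibodies and depths differ, so these totals say nothing of which factor binds more of the genome. By the same rule input BVSC gave 26 sites and input BV gave 11.

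The strongest T site, chr18:13575001-13579001, had 723 T and 33 SMAD1 counts at its summit (levels 41.9 and 0.917), where input PV had 29 counts. The plain ratio of levels was 45.7 (95% interval 32.3 to 67.0). At chr3:3348001-3351001 there were 708 T and 57 SMAD1 counts (levels 41.1 and 1.58, ratio 25.9, 19.8 to 34.6). At chr7:86932001-86936001 there were 689 and 71 counts (levels 40.0 and 1.97, ratio 20.3, 15.9 to 26.3). At these leading T sites SMAD1 stayed below 2. The next were chr13:19003001-19007001 with levels of 31.0 for T and 1.03 for SMAD1, and chr19:45796001-45799001 with 30.9 and 1.5. On chromosome 1, chr1:184920001-184923001 had 30.6 and 1.17, and chr1:171909001-171913001 had 30.0 and 1.86. The last 3 of the 10 strongest, chr12:11214001-11218001, chr10:110784001-110787001 and chr2:159738001-159741001, each had 483 T counts (level 28.0), with SMAD1 at 1.42, 1.28 and 1.25. The nearest SMAD1 site lay 442 kb from the first of the 10 and 1510 kb or more from the others.

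The strongest SMAD1 site, chr7:30935001-30940001, had 20 T and 922 SMAD1 counts at its summit (levels 1.16 and 25.6), where input PV had 36 counts. SMAD1 over T was 22.1 (95% interval 14.2 to 36.3). At chr11:50712001-50716001 there were 23 T and 770 SMAD1 counts (levels 1.33 and 21.4, SMAD1 over T 16.0, 10.6 to 25.4). At chr11:121718001-121723001 there were 19 and 686 counts (levels 1.10 and 19.1, SMAD1 over T 17.3, 11 to 28.9). T was within the range of ordinary windows at all 3, and SMAD1 at 12 h in BV stood at 29.5, 25.2 and 25.5 there. The next were chr9:22081001-22085001 with levels of 1.74 for T and 19 for SMAD1, chr8:71750001-71755001 with 1.86 and 18.5, and chr7:134753001-134758001 with 1.45 and 15.8. Then came chr2:104657001-104661001 with 1.28 and 12.6, chr17:29296001-29301001 with 1.57 and 12.3, and chr7:13077001-13081001 with 1.28 and 12.2. The tenth, chr7:50444001-50448001, had 1.91 and 11.7 with input PV at 1.97. Chromosome 7 thus held 4 of the 10. The nearest T site lay between 79 and 3540 kb from each.

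At T sites the median log2 ratio of T over SMAD1 was 1.76, and 1443 of 1476 summits (97.8%) lay past 2-fold towards T. At SMAD1 sites it was -1.88, and 108 of 123 summits (87.8%) lay past 2-fold towards SMAD1. These values describe sites that were chosen for the level of 1 of the pair, so they carry no test. Around T sites the median SMAD1 level was 1.31 at the summit and 1.14 at 10 kb on either side, while input PV was 1.17 and 1.12. Around SMAD1 sites the median T level was 1.45 at the summit and 1.04 at 10 kb on either side, while input PV was 1.2 and 1.03. Each factor was thus slightly higher at the other's summits than beside them, by more than the input was. T was back to a median of 1.28 at 2 kb from its summits, and SMAD1 to 1.67 and 1.56 at 2 kb on either side of its own.

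**Figure D3:**
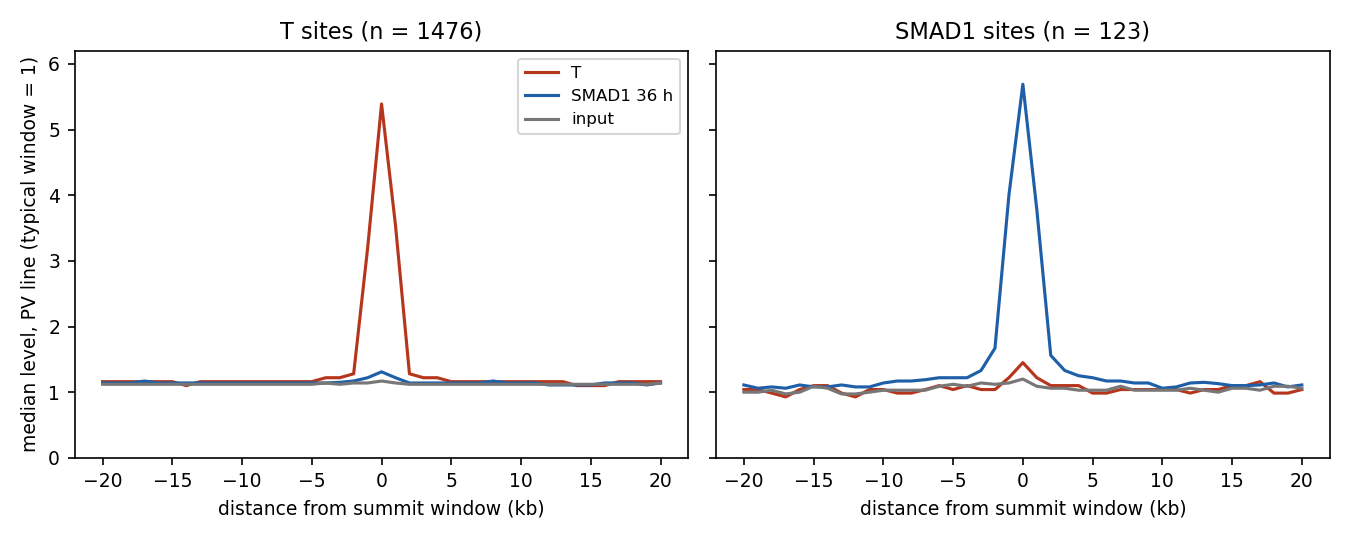
Median level of T (red), SMAD1 at 36 h (blue) and input (grey) in PV by distance from the summit window in kb, at 1476 T sites (left) and 123 SMAD1 sites (right), with a typical window at 1. T peaks at 5.39 over its own sites and 1.45 over SMAD1 sites; SMAD1 peaks at 1.31 over T sites and 5.69 over its own.

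The SMAD1 libraries of BV were raised at most SMAD1 sites and at few T sites. The share at T sites was still above that of all windows. TCF1 and the inputs had similar medians at both kinds of site. At SMAD1 sites the SMAD1 libraries of BV had median levels of 7.27 at 12 h, 3.72 at 24 h and 3.23 at 36 h, and 122, 121 and 108 of the 123 sites were at 2 or more. At T sites those medians were 1.26, 1.34 and 1.45, with 85, 103 and 231 of 1476 at 2 or more. That is 5.76, 6.98 and 15.7% of T sites at 12, 24 and 36 h. Of all windows with input PV below 2, 1.48, 0.897 and 1.98% were at 2 or more in these libraries. TCF1 had a median of 1.32 at T sites, where 133 (9.01%) were at 2 or more, and 1.24 at SMAD1 sites, where 15 (12.2%) were, against 2.75% of those windows. The inputs had medians between 1.10 and 1.2 at both kinds of site.

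**Figure D4:**
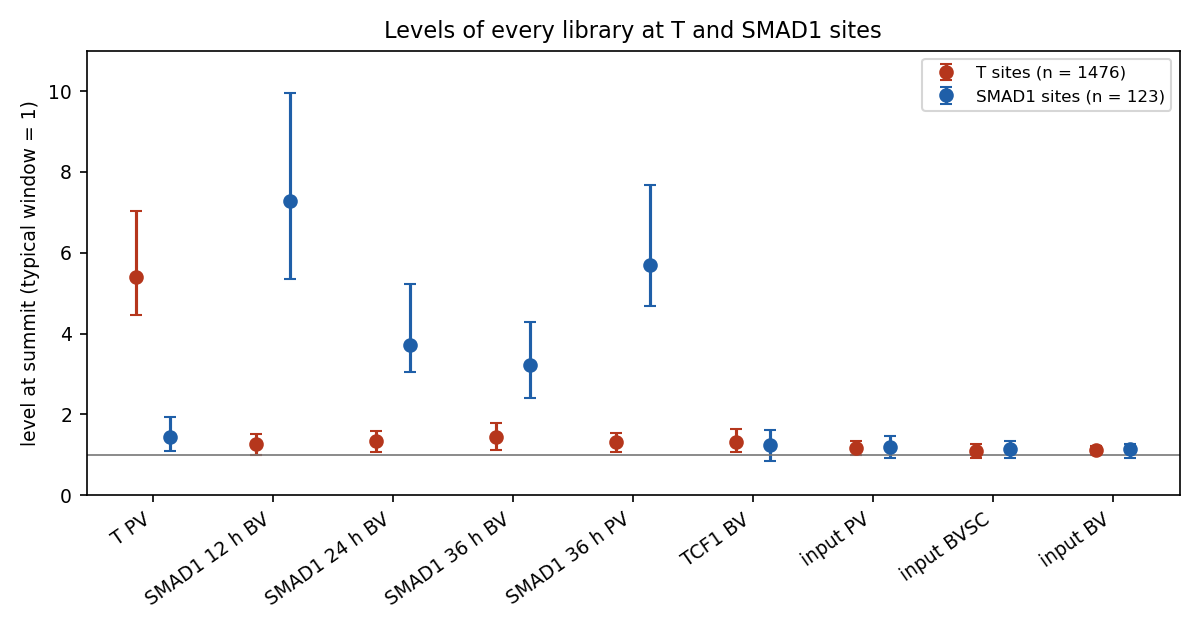
Level at the summit (typical window at 1, grey line) in every library, at 1476 T sites (red, left of each pair) and 123 SMAD1 sites (blue); points are medians over sites and bars run from the first to the third quartile. The 4 SMAD1 libraries have medians between 3.23 and 7.27 at SMAD1 sites and between 1.26 and 1.45 at T sites.

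At the site level of 4, T and SMAD1 sites shared 1 place. It was chr3:5860001-5862001, with 84 T and 191 SMAD1 counts (levels 4.87 and 5.31, T over SMAD1 0.918, 95% interval 0.702 to 1.19). TCF1 stood at 3.44 there and SMAD1 at 12 h in BV at 7.60, and the inputs at 1.77 for PV, 0.575 for BVSC and 1.29 for BV. This was 0.0678% of T sites (exact 95% interval 0.00172 to 0.377) and 0.813% of SMAD1 sites (0.0206 to 4.45). These intervals treat sites as independent draws, and sites of 1 library are not replicates. Of all windows with input PV below 2, 0.0318% lay at 0 kb from a SMAD1 site and 0.377% at 0 kb from a T site. With 1 shared place, the difference from these shares was not tested. Counting sites within 10 kb of each other as shared added none, and at a site level of 6 no site was shared. At a site level of 3, 19 of 238 SMAD1 sites were shared, where T had 3391 sites. The shares of all windows above hold for a level of 4 with the ceiling on input PV. None was computed at a level of 3 or with another ceiling. With the ceiling set on input BVSC 17 of 134 were shared, and on input BV 13 of 132. In all of these 17 and 13 the window highest in SMAD1 had input PV at 2 or more. The place on chromosome 3 is among them, since without a ceiling on input PV it also takes in chr3:5859001-5861001, where T had 96 and SMAD1 210 counts (levels 5.57 and 5.83) and input PV stood at 2.26. With each chromosome scaled on its own 4 were shared.

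The 9 other nearest pairs lay 23 to 81 kb apart. On chromosome 18 a T site at chr18:13106001-13108001 stood 23 kb from a SMAD1 site at chr18:13131001-13133001. The T site had levels of 4.58 for T and 2.19 for SMAD1, and the SMAD1 site had 1.57 and 4.14. On chromosome 4 the T site chr4:147230001-147233001 (7.54 for T, 1.28 for SMAD1) stood 29 kb from the SMAD1 site chr4:147199001-147201001 (1.57 and 4.17). On chromosome 8 the T site chr8:71929001-71932001 (12.8 and 1.64) stood 31 kb from the SMAD1 site chr8:71894001-71898001 (1.04 and 6.86). The T site chr8:71668001-71671001 (5.80 and 1.92) stood 79 kb from chr8:71750001-71755001, the fifth strongest SMAD1 site. Sites of a pair that do not overlap differ in the leading factor by the way they were called. On chromosome 11 the T site chr11:19885001-19888001 (5.51 and 1.06) stood 32 kb from chr11:19920001-19922001 (1.62 and 4.39), and on chromosome 9 chr9:88425001-88427001 (4.00 and 1.33) stood 36 kb from chr9:88463001-88466001 (1.28 and 5.33). The 3 remaining pairs were chr18:24109001-24112001 with chr18:24161001-24163001 at 49 kb, chr16:28939001-28941001 with chr16:29012001-29015001 at 71 kb, and chr4:144955001-144958001 with chr4:145039001-145041001 at 81 kb. In the last of these T reached 18.3 at its site and SMAD1 5.06 at its own.

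T sites lay about as far from SMAD1 sites as any window did. The median distance from a T site to the nearest SMAD1 site was 13500 kb, against 14400 kb for all windows with input PV below 2. Within 100 kb of a SMAD1 site lay 12 of 1476 T sites (0.813%), against 0.909% of all windows, and within 1000 kb 119 (8.06%) against 7.24%. In the other direction the median distance from a SMAD1 site to the nearest T site was 813 kb, against 626 kb for all windows. Within 100 kb of a T site lay 11 of 123 SMAD1 sites (8.94%), against 11.6% of all windows, and within 500 kb 42 (34.1%) against 42.8%. At these distances the shares for sites were thus near or below those of windows at large, with no test of the difference. Between a T site and the nearest other T site the median was 402 kb, and 313 of 1476 (21.2%) lay within 100 kb. Between a SMAD1 site and the nearest other SMAD1 site it was 1620 kb, leaving out 3 sites with no other on their chromosome, and 31 of 123 (25.2%) lay within 100 kb. The 813 kb to the nearest T site cannot be set against this, since T had 1476 sites and SMAD1 123. With only the 123 strongest T sites, the median from a SMAD1 site to a T site was 6690 kb. The 12 T sites within 100 kb of a SMAD1 site had a median level of 5.60, and the other 1464 had 5.37.

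**Figure D5:**
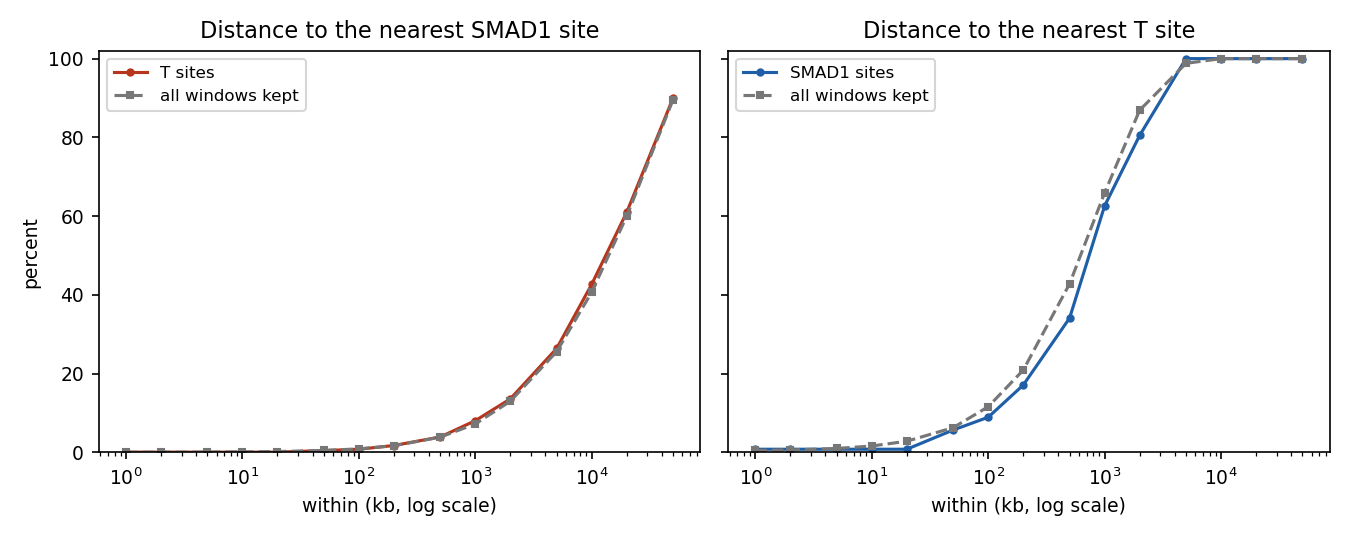
Percent of sites within a given distance (kb, log scale) of the nearest site of the other factor: T sites to SMAD1 sites (left, red) and SMAD1 sites to T sites (right, blue), with all windows compared as grey dashed lines. The red line lies on the grey one, with 8.06 and 7.24% within 1000 kb, and the blue line lies below the grey one at 500 kb, with 34.1 and 42.8%.

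T was raised more often in windows raised in SMAD1 than in windows at large. Part of the windows raised in both had a raised input PV too. A level of at least 2 was reached by T in 55193 windows (2.46%), by SMAD1 in 14702 (0.656%) and by both in 3919 (0.175%). The 3919 are 7.10% of the T windows and 26.7% of the SMAD1 windows, whereas SMAD1 was raised in 0.656% and T in 2.46% of all windows. Of them 895 (22.8%) had input PV at 2 or more, 989 had it between 1.5 and 2, and 2035 (51.9%) had it below 1.5. T and SMAD1 were nearly equal in this last group, with a median log2 ratio of 0.08. The median levels were 2.32 and 2.11, just above the cut of 2 on both, and such a cut favours near-equality. Of the 2035, 42 lay past 2-fold towards T and 17 towards SMAD1, where 0.332% and 0.24% of all windows did. The median input PV of the 2035 was 1.29, above the 1.06 of all windows. Chromosome 8 held 409 of the 2035 (20.1%), against 5.31% of all windows. TCF1 was at 2 or more in 25.4% of the 2035, and SMAD1 at 12 h in BV in 31.1%, against 2.78% and 1.52% of all windows. The part of input level, of chromosome 8 and of the TCF1 level in these windows was not tested.

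The 10 windows highest in both, taken where input PV was below 1.5 and 1 per region, had lower levels between 3.11 and 3.77. The first, chr6:49185001-49187001, had 65 T and 141 SMAD1 counts (levels 3.77 and 3.92), with TCF1 at 3.31 and input PV at 1.43. The second, chr2:152564001-152566001, had 57 and 123 counts (levels 3.31 and 3.42), with TCF1 at 1.81. Next came chr11:101488001-101490001 with 3.77 for T and 3.22 for SMAD1, chr1:182818001-182820001 with 4.64 and 3.19, and chr8:93352001-93354001 with 3.19 and 4.89. They were followed by chr1:197066001-197068001 with 3.94 and 3.17, and chr10:60277001-60279001 with 3.77 and 3.17. At chr8:71645001-71647001 the levels were 3.89 and 3.14, and TCF1 was higher than both at 6.26. The last were chr1:74432001-74434001 with 3.13 and 4.03, and chr18:36033001-36035001 with 3.13 and 3.11. Both had TCF1 below 2, at 1.06 and 1.59. In 8 of the 10 windows the exact interval of T over SMAD1 held 1, the others being chr1:182818001-182820001 (1.45, 1.08 to 1.95) and chr8:93352001-93354001 (0.653, 0.473 to 0.888). Ranking by the lower of the 2 levels favours windows near equality, so these intervals carry no test.

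Where input PV was held between 0.8 and 1.2, T was still raised more often where SMAD1 was raised. T was at 2 or more in 0.427% of windows with SMAD1 between 0.5 and 1, in 2.18% between 1 and 1.5, and in 7.22% between 1.5 and 2. The share thus rose below a SMAD1 level of 2 as well. It was 19.4% for the 3079 windows with SMAD1 between 2 and 3, and 8.64% (7 of 81) between 3 and 4. Between 4 and 6 it was 24.6% (14 of 57), and at 6 or more 17.1% (7 of 41). TCF1 was at 2 or more in 0.251, 2.39, 8.44, 16.2, 9.88, 3.51 and 4.88% of the same windows. Above a SMAD1 level of 2 the shares for T followed no order, and from 3 up they rest on under 100 windows each. In the other direction SMAD1 was at 2 or more in 0.0704% of windows with T between 0.5 and 1. The share was 0.29% with T between 1 and 1.5, and 1.01% between 1.5 and 2. It was 3.14% with T between 2 and 3, and 3.03% for the 462 windows with T at 6 or more. Windows overlap, so these are descriptions.

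At 30 of the 123 SMAD1 sites (24.4%) T was at 2 or more, against 2.41% of all windows with input PV below 2. At those 30 the median level was 2.41 for T and 5.21 for SMAD1, with TCF1 at 1.65 and input PV at 1.23, and 15 of the 30 were past 2-fold. At the other 93 the medians were 1.28 for T and 5.86 for SMAD1, with TCF1 at 1.06 and input PV at 1.14, and all were past 2-fold. TCF1 was at 2 or more at 9 of the 30 and at 6 of the 93. After the shared place on chromosome 3, T was highest at the SMAD1 sites with summits at chr13:44964001-44966001 (3.25 for T, 4.00 for SMAD1, TCF1 3.71), chr8:93352001-93354001, named above, and chr7:89920001-89922001 (3.13 and 7.69, TCF1 3.13). At T sites, SMAD1 was at 2 or more at 60 of 1476 (4.07%), against 0.607% of all windows with input PV below 2. Examples with T far above SMAD1 were chr14:14564001-14566001, with 17.1 for T and 2.86 for SMAD1, and chr1:134036001-134038001, with 13.9 and 2.67. These examples were chosen after their values were seen.

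T and SMAD1 sites were spread differently over the chromosomes. Per 10 Mb of windows compared, T had between 5.41 sites on chromosome 16 and 9.21 on chromosome 18. SMAD1 had 1.69 on chromosome 7, 1.51 on chromosome 17 and 1.18 on chromosome 8, and 0.0679 on chromosome 3. Chromosome 7 held 93 of 1476 T sites (6.30%) and 21 of 123 SMAD1 sites (17.1%), with 5.55% of the windows.

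The 2 libraries of the line did not have the same level on chromosomes 8 and 14. Over typical windows, chromosome 8 averaged 1.03 in T and 1.12 in SMAD1 (ratio 0.919) and 1.08 in input PV. Chromosome 14 averaged 1.07 in T and 0.986 in SMAD1 (ratio 1.08) and 1.07 in input PV. The other 17 autosomes had ratios between 0.987 and 1.01. On chromosome 8, 0.195% of windows were on the T side and 0.432% on the SMAD1 side, and on chromosome 14 0.449% and 0.107%. With each chromosome scaled on its own, chosen after seeing the data, these were 0.24 and 0.196% on chromosome 8 and 0.317 and 0.166% on chromosome 14, so the side that led on chromosome 8 changed with this scaling.

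Windows with high input were mostly near equality between T and SMAD1. In 1095 windows some input exceeded 3, with levels up to 5320 in T and 6000 in SMAD1. Their median log2 ratio was -0.05, and 99.0% lay within 2-fold. Of the 1095, 10 lay past it towards T and 1 towards SMAD1, where 0.332% and 0.24% of all windows did. The longest run with input PV at 5 or more and both other inputs below 2 was chr1:12968001-13140001, which had median levels of 11.3 in T and 10.6 in SMAD1 over 168 windows, with input PV at 10.2 and input BVSC at 1.11. The median log2 ratio there was 0.08. Past 2-fold lay 7 of the 168 windows, all towards T, where 0.332% of all windows did. With input PV this high, the 7 are among the 10 windows given above. The 7 windows formed 3 regions. At chr1:13027001-13029001 there were 1091 T and 393 SMAD1 counts (levels 63.3 and 10.9, ratio 5.80, 95% interval 5.16 to 6.52). At chr1:13063001-13065001 there were 730 and 464 counts (levels 42.3 and 12.9, ratio 3.29, 2.92 to 3.70), and at chr1:13121001-13123001 there were 320 and 279 counts (levels 18.6 and 7.75, ratio 2.39, 2.03 to 2.82). T thus stood above SMAD1 at 3 places within DNA that was raised in every PV library.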

How the data were processed

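The authors deposited unnormalized counts of reads in 2 kb windows stepping by 1 kb, as the values show, so each read falls in 2 windows and depth was summed over every other window. Per the submitters' processing notes, the tool was Bowtie 0.12.8 and the build mm9. No source used here says how duplicates and reads with several positions were treated, and reads copied by PCR are not independent molecules. Per the labels' protocols, reads were single-end from a SOLiD instrument. Scaling divided each library by its mean count in autosomal windows whose average input, over all 3 inputs, fell from the 10th to the 90th percentile. The ratio used a pseudocount of 0.5, a filter of 0.25 on mean input and no upper limit. Sites, inputs and windows are as defined with the results. Named were the 10 strongest sites of each library, the 10 windows highest in both, the 10 nearest pairs and the windows next to 2-fold. Calculations used Python 3.11.15, numpy 2.4.6, pandas 2.3.3 and scipy 1.17.1, and were tested on simulated data with planted regions. Thinning was random with a fixed seed. Sites, lists and comparisons were chosen with earlier results of these data known. Gene lists and motifs that had been planned need positions of build mm9 and are not analysed here.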

Additional observations from a re-analysis of the deposited data

Results flagged for a closer look

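Chromosome X was left out of the comparison, and T signal was present there. By the rule used for autosomal sites, T had 25 sites on chromosome X, against 8 in input BVSC and 8 in input BV, and SMAD1 at 36 h in PV had 3. The T site with the highest level, chrX:19644001-19647001, had 174 T and 36 SMAD1 counts (levels 10.1 and 1.00) with input PV at 0.601. Input PV had a median level of 0.486 on this chromosome, so a fixed level of 4 asks for more there than on autosomes.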

How the results depend on the processing

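No paired analysis was possible because every group is 1 library. Of 87 alternative values, 43 stayed within 1.5 times the count or within the interval of the median over sites, and 44 moved. Only the median log2 ratios could change sign, at sites chosen for a high level in 1 library, and 0 did. A swap in the order of the T and SMAD1 counts was labelled as moved. Windows on the T side and on the SMAD1 side numbered 15748 and 28376 with a pseudocount of 0.25, 3890 and 464 with 1, 3754 and 2713 in every other window, 13280 and 10381 with SMAD1 thinned to the depth of T, and 3658 and 915 where the exact interval excluded 2-fold. Fewer windows, more counting error and a stricter call, in that order, moved the last 3 by construction. The stricter call kept 49.2% of windows on the T side and 17% on the SMAD1 side. Median T counts on these sides were 57 and 6, and the interval is wider at low counts. These shares therefore cannot be compared between the factors. Windows raised in both numbered 6906 with total scaling, 602 at a level of 3, 441 at 4 and 2035 with input PV below 1.5. The median log2 ratio at T sites was 1.71 with total scaling, 1.91 with a pseudocount of 0.25 and 1.51 with 1, and that at SMAD1 sites was -2.04 with 0.25. At a site level of 3 there were 3391 T and 238 SMAD1 sites with 19 shared, and median distances of 246 kb from SMAD1 to T and 5400 kb from T to SMAD1. At a level of 6 these were 556, 57, 0, 1570 kb and 17600 kb, and with sites called by 4-fold enrichment over input PV they were 619, 68, 0, 1510 kb and 20700 kb. With equal numbers of the strongest sites they were 123, 123, 0, 6690 kb and 15800 kb. With the ceiling on input BVSC, 17 sites were shared and the distances were 676 and 9720 kb, and on input BV 13 were shared and the distance from T was 10100 kb. With each chromosome scaled on its own, an alternative chosen after seeing the data like the one without chromosomes 8 and 14, 4 were shared and the distance from T was 11600 kb. At 2-fold the T side held more windows than the SMAD1 side, except with the pseudocount of 0.25. A typical window held 17.2 T counts, which limits what can be seen where T is low.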

Other observations

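The longest runs past 2-fold were of similar length on both sides, and are named here after their values were seen. On the T side, chr14:59431001-59439001 spanned 8 kb, with levels of 4.64 for T and 1.25 for SMAD1 where the ratio was highest. Runs of 7 kb lay at chr7:83901001-83908001 (6.26 and 1.00) and chr11:52914001-52921001 (5.86 and 1.31). On the SMAD1 side, chr5:23206001-23215001 spanned 9 kb, with 0.406 for T and 2.53 for SMAD1, where input PV was 0.458 and SMAD1 at 12 h in BV 3.64. At chr8:125951001-125959001 the levels were 0.696 and 2.47 over 8 kb, and at chr16:98230001-98237001 they were 1.68 and 8.47 over 7 kb, with SMAD1 at 12 h in BV at 8.13. These runs are longer than the 2 kb window, whereas 4042 of 4619 regions on the SMAD1 side were a single window.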
